A study of Mus musculus with 8 samples.

Results

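Cells of the kidney tubule are held together by tight junctions, adherens junctions, desmosomes and gap junctions, and the genes that build these contacts were examined in mouse kidneys 72 h after cisplatin. The genes were chosen by name: the claudins, the classical and related cadherins, the catenins, the desmosomal cadherins, plakophilins, desmoplakin and plakoglobin, the connexins, and a set of other tight junction genes (Tjp, *Ocln*, Marveld, Jam, *F11r* and *Epcam*). Protein-coding rows of the deposited count table with 1 value for each library were used, which gave 60 junction genes of 12286 protein-coding rows and 35880 rows of any kind with such values. The names matched 109 symbols in all. The other 49, among them *Cldn10*, *Cldn3*, *Cldn8*, *Cldn1*, *Cldn16*, *Cldn19*, *Ocln*, *Tjp1*, *Gjb1* and *Gjb2*, stood in rows whose values could not be assigned to libraries and were not analysed here.

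Bulk RNA-seq of kidney tissue was compared between 4 wild-type mice given saline (control 1, 2, 3 and 5) and 4 wild-type mice given cisplatin (cisplatin 1, 3, 4 and 6). The study's methods describe male C57/BL6J mice and a single intraperitoneal dose of 23 mg/kg. Cisplatin is a platinum drug that enters proximal tubule cells by organic cation transport and injures them. The comparison asks which junction genes differ between the injured and the uninjured kidney.

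Claudins are membrane proteins of the tight junction that seal the space between neighbouring cells or form pores through it, and each nephron segment has its own combination of them. Claudin-2 forms a cation and water pore in the leaky proximal tubule, whereas claudin-4 and claudin-7 belong to the tighter distal nephron and collecting duct. Cadherins join cells at adherens junctions and are tied to actin by catenins, desmosomes tie cells to keratin filaments, and connexins form the channels of gap junctions.

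Total counts per library ranged from 10953338 to 16701599. Levels are given as CPM, read counts scaled to a common library size after TMM normalization, and a gene was called when the edgeR quasi-likelihood test gave an adjusted p under 0.05 and a log2 fold change of at least 1 in either direction. The treatment separated the libraries along the first principal component (73.55% of the variance), while the second component (15.96%) set control 5 and cisplatin 4 and 6, 3 libraries, apart from the other 5. The labels name no batch, so these 2 sets were defined from the data, and values within each set are given where they matter. Those of the first set are edgeR log2 fold changes. Those of the second, with control 5 as its only control, are log2 ratios of mean CPM and a different measure. Cisplatin 1 and 3 had fewer than 10 counts on Y-linked genes, although the methods describe male mice, and results that rest on these 2 libraries are given without them.

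Of the 60 junction genes, 36 passed the expression filter, and the other 24 had at most 2 counts in every library. These 24 included 15 genes with no count at all, among them several genes of the Cldn34 group, *Dsc1*, *Dsg1a* and the cadherins *Cdh7*, *Cdh8*, *Cdh9*, *Cdh12* and *Cdh18*. Among the 36 tested genes, 13 rose and 8 fell after cisplatin, beside 19.2% of all 9141 tested genes that rose and 15.7% that fell. The 13 that rose made up 36.1% of the tested junction genes and the 8 that fell 22.2%. Scaling by total library size, which moved the median of all genes up by 0.57 on the log2 scale, gave 21 higher and 4 lower. Over all genes that scaling gave 3174 higher and 803 lower. The median log2 fold change of the 36 genes was 0.82, against 0.08 for all tested genes, with a range from -6.71 for *Ctnna2* to 6.19 for *Cldn23*. In 17 of the genes every cisplatin library lay above every control library and in 8 every cisplatin library lay below, beside 23.7% and 22.5% of all tested genes. Genes with next to no counts in 1 of the groups passed the filter only through the other group, so these counts describe the genes and were not used as a test of them.

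**Figure D1:**
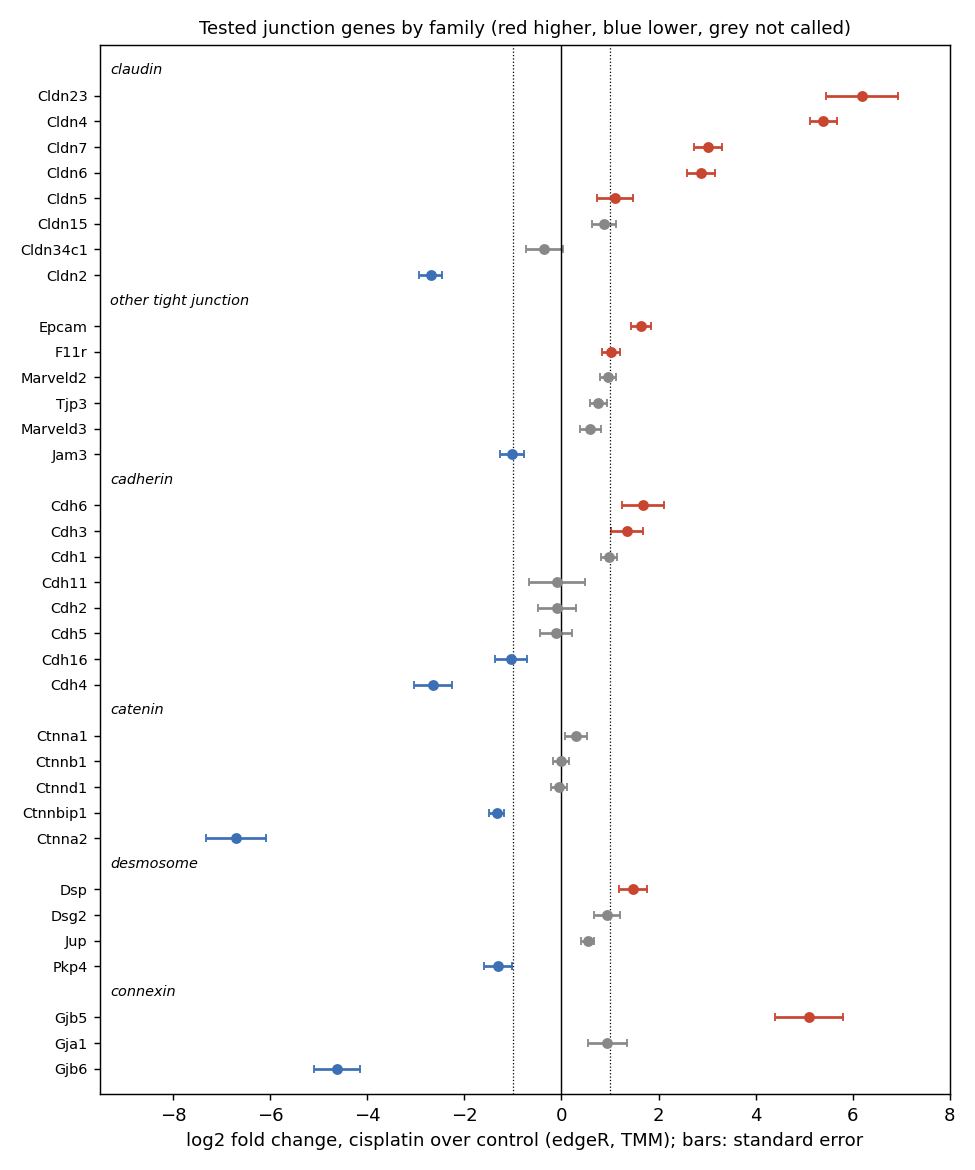
Log2 fold change of tested junction genes, cisplatin over control, on the horizontal axis, grouped by family, with standard errors as bars and dotted lines at the threshold of 1 in each direction. Red genes rose, blue genes fell and grey genes were not called; claudins and connexins spread widest to the right, and *Ctnna2* lies farthest to the left.

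Of 8 tested claudins, 5 rose (*Cldn4*, *Cldn7*, *Cldn6*, *Cldn23* and *Cldn5*), *Cldn2* fell, and *Cldn15* and *Cldn34c1* were not called. *Cldn2*, the pore-forming claudin of the proximal tubule (GRCm38 chrX:139800828-139811386, plus strand), was at 1072, 936.4, 994.7 and 1120 CPM in the controls and at 137.2, 233.3, 153.9 and 112.3 CPM after cisplatin. Every cisplatin library was far below every control. *Cldn2* fell 6.48-fold (log2 fold change -2.70, SE 0.24, edgeR adjusted p = 2.61e-05). In bulk tissue, fewer proximal tubule cells and less *Cldn2* RNA per cell cannot be told apart.

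*Cldn4*, the claudin of the collecting duct and distal nephron (chr5:134945119-134946934, minus strand), moved the other way. Its controls were at 19.48, 15.72, 23.81 and 23.20 CPM and its cisplatin libraries at 624.2, 699.2, 996.6 and 1150 CPM. The groups were far apart, with cisplatin 4 and 6 above cisplatin 1 and 3. *Cldn4* rose 42.2-fold (log2 fold change 5.40, SE 0.28, edgeR adjusted p = 1.54e-06). Its log2 fold change was 5.02 in the first library set, and its log2 ratio to control 5 was 5.53 in the second.

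*Cldn7*, which also belongs to the distal nephron, was at 14.79, 13.16, 16.31 and 28.78 CPM in the controls and at 118.5, 115.4, 172.3 and 183.5 CPM after cisplatin. *Cldn7* rose 8.07-fold (log2 fold change 3.01, SE 0.29, edgeR adjusted p = 3.87e-05). *Cldn6*, a claudin best known from embryonic epithelia, was at 1.15, 1.76, 1.37 and 2.28 CPM in the controls and at 10.1, 12.59, 10.91 and 14.91 CPM after cisplatin. Both genes had no control library near the cisplatin range. *Cldn6* rose 7.35-fold (log2 fold change 2.88, SE 0.29, edgeR adjusted p = 5.18e-05).

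*Cldn23* was close to silent in the controls, with 3, 2, 0 and 2 counts, and had 101, 107, 190 and 248 counts after cisplatin. The summed counts, 7 against 646, gave a normalized ratio of 69.1, with an exact 95% counting interval from 33.3 to 173 that covers counting error only (edgeR adjusted p = 0.000136). *Cldn5*, the claudin of endothelium that podocytes also express, was at 9.30, 8.62, 10.16 and 14.70 CPM in the controls and at 15.92, 10.83, 27.23 and 37.98 CPM after cisplatin. Its groups overlapped, since cisplatin 3 lay below control 5. *Cldn5* rose by the test (log2 fold change 1.10, SE 0.37, edgeR adjusted p = 0.0338), but in the first library set alone the log2 fold change was 0.46 with an adjusted p of 0.094. Leaving out control 1, control 2, control 3, cisplatin 4 or cisplatin 6 alone also ended the call, with log2 fold changes from 0.75 to 1.06 in these edgeR fits. *Cldn15*, a pore-forming claudin, was not called, at 17.01 ± 4.27 CPM in the controls and 31.39 ± 7.35 CPM after cisplatin (SD, n = 4), although its groups did not overlap (log2 fold change 0.88, edgeR adjusted p = 0.014). Without cisplatin 4 its log2 fold change was 1.0 and it was called. Leaving out any other single library gave no call, and the lowest value, without control 3, was 0.71. *Cldn34c1*, a member of a mouse claudin cluster on the X chromosome, averaged 0.91 ± 0.34 and 0.71 ± 0.18 CPM (log2 fold change -0.35, edgeR adjusted p = 0.47).

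**Figure D2:**
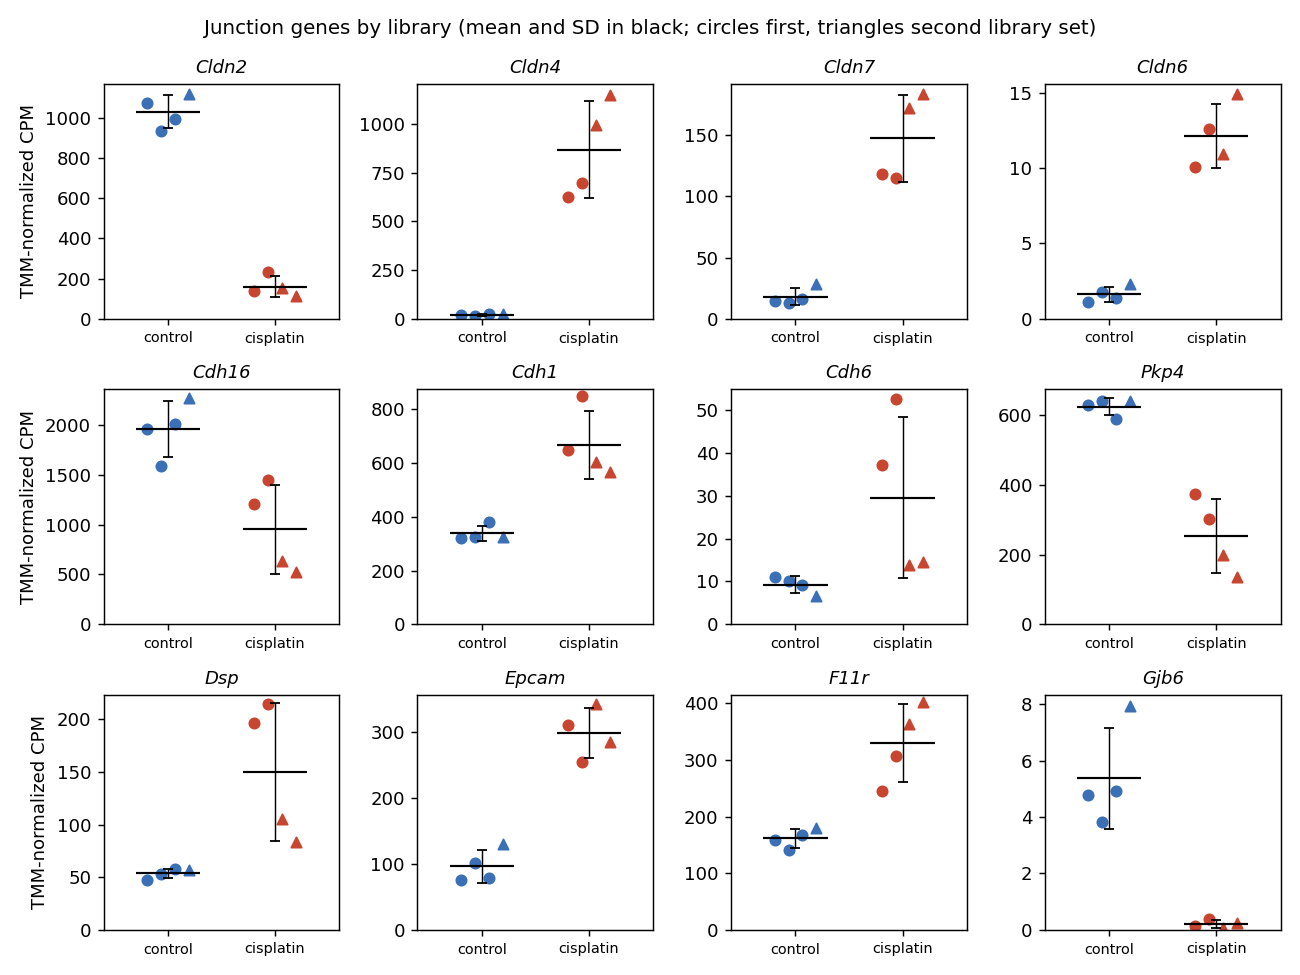
TMM-normalized CPM (vertical axes, each from 0) of 12 junction genes in the 4 control (blue) and 4 cisplatin (red) libraries, with the mean and SD in black; circles are control 1, 2, 3 and cisplatin 1, 3, and triangles are control 5 and cisplatin 4, 6. The groups do not overlap in these 12 genes, and within the cisplatin group *Cdh16*, *Cdh6*, *Pkp4* and *Dsp* are lower, and *Cldn4*, *Cldn7* and *F11r* higher, in the second library set (triangles).

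CPM was divided by the gene length given in the table to set claudins of different length side by side. This does not remove the relation between gene length and library set described below, and *Cldn4* (1816 bases) is shorter than *Cldn2* (3325 bases). The 8 tested claudins summed to 313.6 to 386.5 CPM per kilobase in the controls and to 483.9 to 826.9 after cisplatin. *Cldn2* made up 87.2% to 90.5% of that sum in the controls and 4.08% to 12.8% after cisplatin. *Cldn4* made up 2.76% to 3.92% in the controls and 70.4% to 76.6% after cisplatin, and *Cldn7* went from between 2.13% and 3.82% to between 10.8% and 12.6%. The ratio of *Cldn4* to *Cldn2* per kilobase was 0.0333, 0.0307, 0.0438 and 0.0379 in the controls and 8.33, 5.49, 11.9 and 18.8 in cisplatin 1, 3, 4 and 6. Among these 8 genes *Cldn2* was thus the leading claudin RNA in every control and *Cldn4* in every cisplatin library. The shares cover neither *Cldn10*, *Cldn3* nor the other claudins not analysed here.

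**Figure D3:**
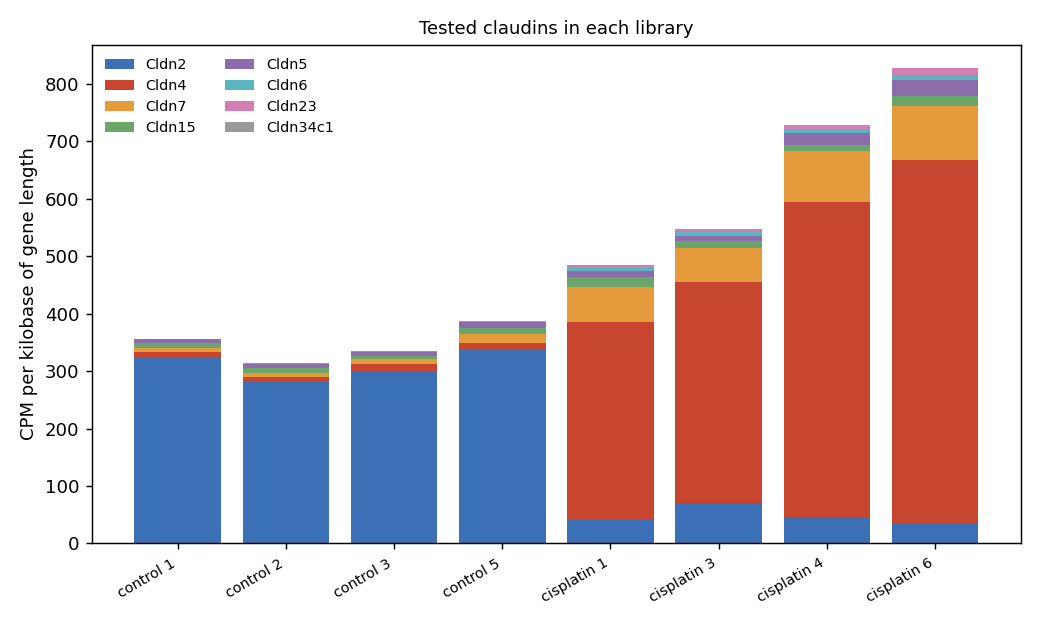
CPM per kilobase of gene length (vertical axis) of the 8 tested claudins, stacked for each of the 8 libraries. Blue *Cldn2* fills 87.2% to 90.5% of the bar in the controls, and red *Cldn4* fills 70.4% to 76.6% of it after cisplatin.

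The promoters of 4 tight junction genes are shown: *Cldn2*, which fell, and *Cldn4*, *Cldn7* and *Epcam*, which rose. They are not the 4 with the largest changes, since *Cldn6* rose more than *Epcam*. The sequences run from 250 bases before to 50 bases after the start of a RefSeq transcript (GRCm38.p6). Capitals mark CACCTG or its reverse complement CAGGTG, the E-box bound by Snail-type repressors, and TGANTCA, the AP-1 element; the AP-1 and the Grainyhead motif AACNGGTT were added after the expression values had been seen. The *Cldn4* window is chr5:134946885-134947184 on the minus strand, that of *Cldn7* chr11:69965171-69965470 on the plus strand, that of *Epcam* chr17:87635729-87636028 on the plus strand and that of *Cldn2* chrX:139800558-139800857 on the plus strand.
Cldn4: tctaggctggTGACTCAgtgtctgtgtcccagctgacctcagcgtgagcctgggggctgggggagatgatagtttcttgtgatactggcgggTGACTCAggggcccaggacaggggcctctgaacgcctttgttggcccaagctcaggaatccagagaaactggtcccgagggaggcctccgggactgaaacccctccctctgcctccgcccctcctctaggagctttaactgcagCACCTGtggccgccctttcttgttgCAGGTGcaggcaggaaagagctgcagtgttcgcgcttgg
Cldn7: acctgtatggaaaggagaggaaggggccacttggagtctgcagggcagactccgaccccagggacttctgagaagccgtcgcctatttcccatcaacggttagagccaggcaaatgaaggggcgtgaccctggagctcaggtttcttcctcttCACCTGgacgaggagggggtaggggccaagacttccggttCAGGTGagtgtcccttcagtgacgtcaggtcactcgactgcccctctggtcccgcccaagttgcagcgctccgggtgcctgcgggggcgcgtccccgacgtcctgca
Epcam: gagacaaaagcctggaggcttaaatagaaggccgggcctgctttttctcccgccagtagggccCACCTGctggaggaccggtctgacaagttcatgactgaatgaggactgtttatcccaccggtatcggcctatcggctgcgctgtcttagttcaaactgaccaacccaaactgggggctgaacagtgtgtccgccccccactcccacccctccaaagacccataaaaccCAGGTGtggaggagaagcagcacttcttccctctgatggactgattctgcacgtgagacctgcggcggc
Cldn2: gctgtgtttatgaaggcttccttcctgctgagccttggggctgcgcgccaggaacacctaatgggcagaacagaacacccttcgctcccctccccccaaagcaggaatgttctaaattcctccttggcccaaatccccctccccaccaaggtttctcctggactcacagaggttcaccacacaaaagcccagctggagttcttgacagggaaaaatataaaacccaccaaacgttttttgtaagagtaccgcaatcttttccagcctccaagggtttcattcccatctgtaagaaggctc
The *Cldn4* window held the AP-1 letters at -240 and -158 and the E-box letters at -14 and 12, counted from the transcript start as position 1. *Cldn7* held E-box letters at -97 and -57 and *Epcam* at -187 and -19, while the *Cldn2* window and the window of the other *Cldn7* start held none of these letters. Over both strands, the E-box letters were found in 20.2% of 32851 promoters, the AP-1 letters in 7.81% and the Grainyhead letters in 2.09%. Of the 36 tested junction genes 22 had a promoter entry, some with more than 1 start, and 11, 5 and 2 of them held the respective letters in any window. The E-box was found for 6 of the 9 matched genes that rose and 3 of the 5 that fell, and the AP-1 letters for 2 and 1. The *Cldn6* window, not printed, held E-box letters at -93 and 41. The 4 windows shown therefore do not stand for all genes that rose or fell. The motifs shared no letters in the windows shown, and a match describes the sequence and is not evidence of binding.

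Among the other tight junction genes, *Epcam* and *F11r* rose and *Jam3* fell. *Epcam*, an epithelial adhesion molecule that stabilizes claudin-7, was at 75.8, 101.5, 78.19 and 129.8 CPM in the controls and at 310.8, 254, 342.9 and 284.8 CPM after cisplatin. All 4 cisplatin libraries lay well above the highest control. *Epcam* rose 3.10-fold (log2 fold change 1.63, SE 0.20, edgeR adjusted p = 0.000173). *F11r*, which encodes junctional adhesion molecule A, was at 158.9, 140.4, 168.3 and 180.3 CPM in the controls and at 245.3, 307.5, 364.1 and 402.1 CPM after cisplatin. *F11r* rose just past the fold threshold (log2 fold change 1.03, SE 0.18, edgeR adjusted p = 0.00135), and in the first library set its log2 fold change was 0.77. Without control 2, cisplatin 4 or cisplatin 6 it was 0.95, 0.97 and 0.92, under the threshold.

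*Jam3*, an adhesion molecule of endothelium and vessel wall, was at 17.8, 17.87, 17.44 and 25.63 CPM in the controls and at 12.23, 8.91, 6.44 and 11.1 CPM after cisplatin. Its groups did not overlap. *Jam3* fell 2.03-fold (log2 fold change -1.02, SE 0.24, edgeR adjusted p = 0.00654), with -0.80 in the first library set, -0.88 without control 5 and -0.88 without cisplatin 4. An antisense gene on its opposite strand had at most 85 counts in any library. *Marveld2*, which encodes tricellulin of the corners where 3 cells meet, *Tjp3*, the scaffold ZO-3, and *Marveld3* passed the adjusted p but not the fold threshold. Their log2 fold changes were 0.96, 0.76 and 0.60 (edgeR adjusted p = 0.00135, 0.00647 and 0.0443). Without cisplatin 1 or control 5, *Marveld2* was past the fold threshold at 1.04 and 1.07. *Tjp3* shares exon sequence with *Apba3* on the opposite strand, which had up to 1487 counts and a log2 fold change of -0.12, and whether the counting used strand is not stated, so reads of the pair may be mixed.

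Of 8 tested cadherins, *Cdh3* and *Cdh6* rose, *Cdh16* and *Cdh4* fell, and 4 were not called. *Cdh16*, the kidney-specific cadherin that proximal and other tubule cells carry on their lateral membrane, was the highest tested junction gene in the controls per kilobase, at 516 ± 74.2 CPM per kilobase (SD, n = 4). Its CPM was 1957, 1587, 2010 and 2270 in the controls and 1208, 1446, 634.4 and 524.6 after cisplatin. The groups did not overlap, but cisplatin 3 lay close to control 2, and cisplatin 4 and 6 were far below cisplatin 1 and 3. *Cdh16* fell 2.05-fold (log2 fold change -1.04, SE 0.33, edgeR adjusted p = 0.0241). Its log2 fold change was -0.54 in the first library set, and its log2 ratio to control 5 was -1.97 in the second. The call was lost when control 1, control 3, control 5, cisplatin 4 or cisplatin 6 was left out, with log2 fold changes from -1.04 to -0.83. Without both cisplatin 1 and 3 the log2 fold change was -1.74.

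*Cdh1*, which encodes E-cadherin, the main adherens junction cadherin of the distal nephron and collecting duct, was at 322.7, 324.2, 380.9 and 326.4 CPM in the controls and at 649.9, 848.4, 604.4 and 566.5 CPM after cisplatin. Every cisplatin library lay above every control. Its log2 fold change of 0.98 (SE 0.17, edgeR adjusted p = 0.00134) missed the fold threshold, so it was not called. Without control 3, the highest control, it was 1.03, and without cisplatin 4 or cisplatin 6 it was 1.02 and 1.05, past the threshold each time. Without cisplatin 3 it was 0.83, and without both cisplatin 1 and 3 it was 0.80, under the threshold. The ratio of *Cdh1* to *Cdh16* per kilobase was 0.119 to 0.169 in the controls and 0.446 to 0.895 after cisplatin, with no overlap.

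*Cdh3*, which encodes P-cadherin, lies next to *Cdh1* on chromosome 8 (chr8:106510891-106557297 and chr8:106603351-106670246, both plus strand). It was at 21.16, 18.27, 25.71 and 13.92 CPM in the controls and at 58.13, 79.02, 30.02 and 33.39 CPM after cisplatin. *Cdh3* rose 2.54-fold (log2 fold change 1.34, SE 0.33, edgeR adjusted p = 0.00753). *Cdh6*, or K-cadherin, a cadherin of the developing and adult proximal tubule, was at 11.07, 10.21, 9.10 and 6.61 CPM in the controls and at 37.11, 52.52, 13.84 and 14.51 CPM after cisplatin. *Cdh6* rose 3.20-fold (log2 fold change 1.68, SE 0.43, edgeR adjusted p = 0.00989). In both genes cisplatin 1 and 3 were much higher than cisplatin 4 and 6, and without those libraries the log2 fold changes were 0.69 for *Cdh3* and 0.62 for *Cdh6*, no longer called.

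*Cdh4*, or R-cadherin, was at 3.37, 4.71, 5.16 and 2.52 CPM in the controls and at 0.91, 0.55, 0.66 and 0.32 CPM after cisplatin. It fell 6.26-fold (log2 fold change -2.65, SE 0.39, edgeR adjusted p = 0.000479). The other 3 tested cadherins had overlapping groups. *Cdh5*, the VE-cadherin of endothelium, was at 129.7, 109, 111.6 and 47.81 CPM in the controls and at 93.01, 80.34, 57.18 and 136.7 CPM after cisplatin (log2 fold change -0.12, edgeR adjusted p = 0.795). Control 5 and cisplatin 6 were its lowest and highest libraries, so the treatment groups mixed. In the first library set its log2 fold change was -0.49 (edgeR adjusted p = 0.0115). In the second its log2 ratio to control 5 was 1.02, the opposite direction.

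*Cdh11*, a cadherin of stromal cells, was at 24.18, 36.38, 6.98 and 9.75 CPM in the controls and at 27.61, 24.91, 6.003 and 13.96 CPM after cisplatin. *Cdh2*, the N-cadherin that mouse proximal tubule cells carry, was at 20.19, 26.80, 12.82 and 16.12 CPM in the controls and at 17.19, 33.27, 9.22 and 11.34 CPM after cisplatin. Both varied as much within the groups as between them, and their log2 fold changes were -0.09 for each (SE 0.57 and 0.40, edgeR adjusted p = 0.914 and 0.868). Without cisplatin 1 and 3 they were -0.96 and -0.88 (edgeR adjusted p = 0.268 and 0.046), still not called.

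Among the catenins, which link cadherins to actin, none of the 3 most abundant was called. *Ctnnb1*, or beta-catenin, had means of 599.5 ± 76.9 CPM in the controls and 597.5 ± 58.6 CPM after cisplatin (SD, n = 4), and a log2 fold change of -0.01 (SE 0.16, edgeR adjusted p = 0.983). *Ctnna1*, the epithelial alpha-catenin, was at 526.2 ± 31.3 and 647.1 ± 199 CPM (log2 fold change 0.30, edgeR adjusted p = 0.298). Its controls ran from 485.3 to 553.7 CPM, and cisplatin 1, 3, 4 and 6 were at 811.8, 826.6, 457.5 and 492.6 CPM. The groups thus overlapped through cisplatin 4 and 6. In the first library set the log2 fold change of *Ctnna1* was 0.55 (edgeR adjusted p = 0.00417). Without both cisplatin 1 and 3 it was -0.14 (edgeR adjusted p = 0.415). *Ctnnd1*, or p120 catenin, was at 58.5 ± 3.22 and 56.5 ± 9.78 CPM. The changes of these 3 genes are relative to the median of all genes, and scaling by total library size turned the sign for *Ctnnb1* and *Ctnnd1*. With all 8 libraries, none of the 3 had an unadjusted p under 0.05 in edgeR, and DESeq2 called 0 of them.

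The catenins that fell were *Ctnnbip1* and *Ctnna2*. *Ctnnbip1*, which encodes a small inhibitor that keeps beta-catenin from its transcription partners, was at 33.38, 30.07, 30.56 and 32 CPM in the controls and at 13.19, 13.69, 11.64 and 11.42 CPM after cisplatin. Its libraries lay close together within each group. *Ctnnbip1* fell 2.52-fold (log2 fold change -1.33, SE 0.15, edgeR adjusted p = 0.000101). *Ctnna2*, the alpha-catenin best known from neurons, had 63, 72, 86 and 67 counts in the controls and 0, 0, 1 and 2 counts after cisplatin. Its normalized level was 128-fold higher in the controls, with an exact 95% counting interval from 43.4 to 626 (edgeR adjusted p = 3.31e-05).

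In the desmosome, *Dsp* rose and *Pkp4* fell. *Dsp*, desmoplakin, which ties desmosomes to keratin filaments, was at 47.82, 53.37, 57.33 and 56.61 CPM in the controls and at 196.7, 214.1, 105.1 and 83.11 CPM after cisplatin. No cisplatin library reached down to the controls, and cisplatin 1 and 3 were highest. *Dsp* rose 2.79-fold (log2 fold change 1.48, SE 0.29, edgeR adjusted p = 0.00245). Without cisplatin 1 and 3 the log2 fold change was 0.82 and the call was lost. *Dsg2*, the desmoglein of simple epithelia, and *Jup*, plakoglobin, had groups that did not overlap but were not called (log2 fold changes 0.93 and 0.54, edgeR adjusted p = 0.0168 and 0.011). Without control 3, cisplatin 4 or cisplatin 6, *Dsg2* was past the fold threshold at 1.03, 1.03 and 1.10, and without both cisplatin 1 and 3 it was at 0.45 (edgeR adjusted p = 0.137).

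*Pkp4*, a p120-related protein also called p0071 that is found at adherens junctions and desmosomes, was at 629.6, 640, 588.6 and 639.1 CPM in the controls and at 373.9, 301.8, 198.9 and 136.2 CPM after cisplatin. The controls lay within a narrow range, and the cisplatin libraries were all lower and spread more widely. *Pkp4* fell 2.47-fold (log2 fold change -1.31, SE 0.28, edgeR adjusted p = 0.0042), with -0.93 in the first library set and -1.93 in the second.

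Of the 5 tested connexins, 3 rose, *Gjb6* fell and *Gja1* was not called, all at low levels. *Gjb5*, which encodes a connexin known from stratified epithelia, had 0, 0, 2 and 0 counts in the controls and 39, 25, 29 and 17 after cisplatin. It had more counts in each cisplatin library than in any control. *Gjb5* rose, with a ratio of 41.2 and an exact 95% counting interval from 11.1 to 344 (edgeR adjusted p = 0.000316).

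*Gjb6*, which encodes connexin 30, a channel of the luminal membrane in the distal nephron, was lower in every cisplatin library. It had 54, 48, 65 and 101 counts in the controls and 3, 7, 1 and 3 after cisplatin, and was 25.6-fold higher in the controls, with a counting interval from 15.0 to 47.4 (edgeR adjusted p = 5.79e-05).

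*Gja1*, connexin 43, the main connexin of stromal and vascular cells, was at 19.48, 18.27, 14.18 and 7.47 CPM in the controls and at 29.61, 49.44, 14.71 and 20.14 CPM after cisplatin. Its groups overlapped, and it was not called (log2 fold change 0.94, SE 0.40, edgeR adjusted p = 0.0796). With the library set as a covariate its log2 fold change was 1.2 (edgeR adjusted p = 0.000733), and without cisplatin 4 it was 1.16 (edgeR adjusted p = 0.0366). Without cisplatin 3 it was 0.51 (edgeR adjusted p = 0.263), and without both cisplatin 1 and 3 it was 0.23 (edgeR adjusted p = 0.618).

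By nephron segment, 12 of the genes listed for a segment had values and another 15 stood in the rows not analysed here. Of 4 genes tested from the proximal tubule list, *Cldn2* and *Cdh16* fell, *Cdh6* rose and *Cdh2* was not called. *Cdh16* is carried by other tubule cells as well. The proximal tubule markers fell in 20 of 20 tested, with a median log2 fold change of -4.03, and their summed level went from 80360 to 98980 CPM in the controls down to 2720, 2715, 11370 and 16560 CPM in cisplatin 1, 3, 4 and 6. *Cldn2* and *Cdh16* fell less than that median. The order among cisplatin libraries also differed: *Cdh16* was higher in cisplatin 1 and 3, where the proximal tubule marker sum was lowest. In cisplatin 1, 3, 4 and 6 the distal convoluted and connecting tubule markers summed to 3855, 5075, 1283 and 1025 CPM. The thick ascending limb markers summed to 4123, 2086, 1035 and 392.7 CPM in the same libraries. Which cells carried the *Cdh16* RNA was not tested.

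Of the 3 distal nephron and collecting duct genes tested, *Cldn4* and *Cldn7* rose and *Cdh1* passed the adjusted p alone. The collecting duct markers gave 2 genes up and 1 down of 9 tested, a median log2 fold change of -0.02, and sums of 943.5 to 1459 CPM in the controls and 770.4 to 1720 CPM after cisplatin. The thick ascending limb markers fell in 5 of 7 tested and those of the distal convoluted and connecting tubule in 4 of 9. For both lists, edgeR at an unadjusted p under 0.05 and DESeq2 gave 0 genes higher. No claudin listed for the thick ascending limb could be analysed here.

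The injured tubule markers rose in 9 of 10 tested, from sums of 1589 to 1835 CPM in the controls to 17520 to 39000 CPM after cisplatin. Urothelium also expresses *Cldn4* and *Cldn7*, and 3 of 5 tested urothelial markers rose. Their sum was 8.94 to 11.8 CPM in the controls and 958 to 1555 CPM after cisplatin, but *Krt20*, which injured tubules also express, made up nearly all of it. Without *Krt20* the other 5 listed genes with values summed to 8.68 to 11.6 CPM in the controls and 8.88 to 44.2 CPM after cisplatin. The part of urothelium or of injured tubule cells in these results was not tested.

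Of 3 endothelial and vessel wall genes, *Cldn5* rose, *Jam3* fell and *Cdh5* was not called. None of 6 tested endothelial markers and none of 6 tested podocyte markers was called by edgeR, and DESeq2 called 0 of either. At an unadjusted p under 0.05 in edgeR, 1 endothelial marker was higher and 1 lower, and 1 podocyte marker was lower. Endothelial *Kdr* and podocyte *Magi2* passed the adjusted p but not the fold threshold. Their log2 fold changes were -0.94 and -0.90 (edgeR adjusted p = 0.0152 and 0.0289). Neither stromal gene, *Cdh11* or *Gja1*, was called, whereas 3 of 5 tested stromal markers rose, with sums of 76.97 to 269.9 CPM in the controls and 364.1 to 1626 CPM after cisplatin. The stromal sum in cisplatin 4 was the lowest of its group, as were the *Cdh11* and *Gja1* levels in that library.

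The order of the junction genes per kilobase shifted with the treatment. In the controls *Cdh16* led, followed by *Cldn2* at 310 ± 24.5 CPM per kilobase, and then *Ctnna1*, *Ctnnb1* and *Pkp4*. The lowest control of *Cdh16*, 418.6, lay above the highest of *Cldn2*, 337, while the ranges of *Ctnnb1* and *Pkp4* overlapped. After cisplatin *Cldn4* led at 478 ± 136 CPM per kilobase (SD, n = 4), followed by *Cdh16* at 251 ± 117, *Ctnna1* at 175 ± 53.9, *Epcam* at 146 ± 18.5 and *Cdh1* at 146 ± 27.4. The ranges of *Cldn4* and *Cdh16* overlapped after cisplatin, as did those of *Cdh16*, *Ctnna1*, *Epcam* and *Cdh1*. *Cldn4* had stood at place 11 in the controls, and *Cldn2* went from place 2 to place 10 of 36.

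The spread among cisplatin libraries was related to gene length. In 14 of the 36 genes cisplatin 1 and 3 both lay above cisplatin 4 and 6, and in 10 both lay below, against 36.2% and 36.7% of all tested genes. The 7 junction genes of up to 2000 bases were all higher on average in cisplatin 4 and 6, with a median log2 ratio of 0.70 over cisplatin 1 and 3. Of the 10 genes above 6000 bases, 8 were lower there, with a median of -0.99. *Cdh6*, *Cdh11*, *Cdh2*, *Gja1* and *Dsp* were the lowest of these. Over the 36 genes Spearman's rho between length and this ratio was -0.68, and over all 9141 tested genes it was -0.39, given as a description because genes share libraries and are not replicates. Control 5 over the other controls gave -0.68 over the junction genes and -0.28 over all genes. The cause of this relation was not tested.

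**Figure D4:**
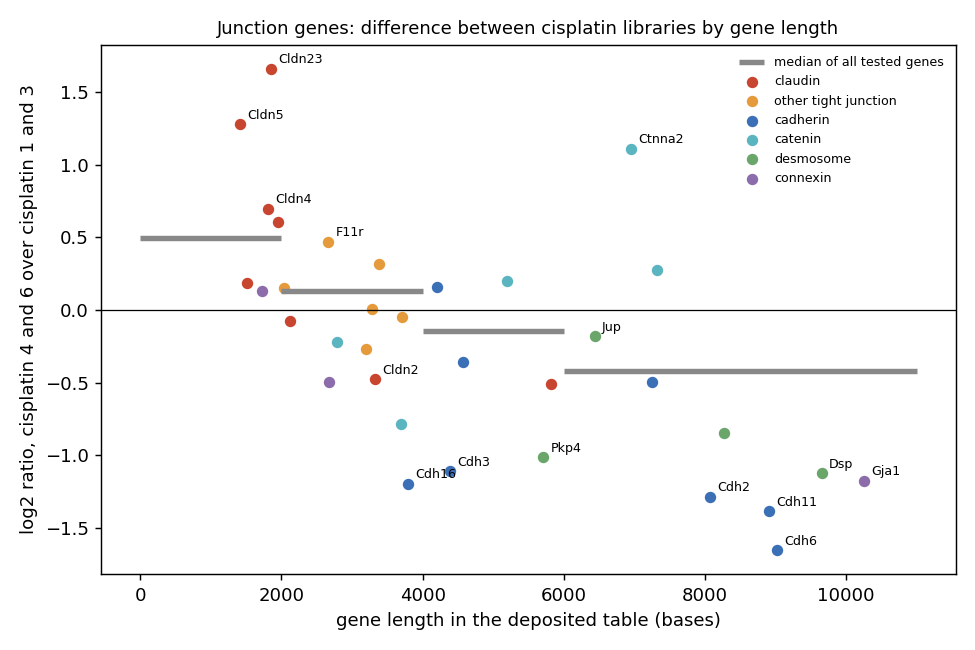
Log2 ratio of cisplatin 4 and 6 over cisplatin 1 and 3 (vertical axis) against gene length in bases (horizontal axis) for tested junction genes, coloured by family, with grey bars for the median of all tested genes in 4 length ranges. Short claudin and connexin genes lie above 0, and long cadherin, desmosome and connexin genes lie below it, with *Cdh6* lowest; the medians of all genes go from 0.50 in the shortest range to -0.42 in the longest.

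For all 21 called junction genes the direction was the same in both library sets. The calls were made on these same libraries, and the second set has no replicate of its control. A shared direction is therefore largely built into the calls. Of the 21 called genes, 11 kept the call in every alternative in which they could be tested. Among them *Cldn4*, *Cldn7*, *Cldn6*, *Cldn23*, *Epcam* and *Gjb5* rose, and *Cldn2*, *Cdh4*, *Ctnna2* and *Gjb6* fell. The matching shares of all called genes are not given here, so neither count sets the junction genes apart from other genes.

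Other junction genes were taken from lists of scaffold, polarity and adhesion genes. Of 18 tested tight junction and polarity genes, 2 rose and 5 fell, with a median log2 fold change of -0.38. *Cxadr*, a junctional adhesion receptor, and *Lsr*, the tricellular junction protein angulin-1, rose (log2 fold changes 1.14 and 1.01, edgeR adjusted p = 0.000493 and 0.000524). *Prkcz*, an atypical protein kinase C of the apical polarity complex, fell from 161.6 ± 28.4 to 34.97 ± 4.01 CPM (log2 fold change -2.21, edgeR adjusted p = 1.08e-05). *Cgnl1*, the scaffold paracingulin, and *Ildr2*, an angulin relative, fell as well (log2 fold changes -1.54 and -1.45, edgeR adjusted p = 0.00267 and 0.00208).

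Of 7 other adherens junction genes tested, 2 rose and 0 fell by edgeR, with a median of 0.74 and with 0 lower at an unadjusted p under 0.05 or by DESeq2. *Pvr*, a nectin-like adhesion receptor, rose from 23.06 ± 1.83 to 142.1 ± 14.4 CPM and *Nectin4* from 5.33 ± 1.30 to 28.37 ± 6.32 CPM (log2 fold changes 2.62 and 2.41, edgeR adjusted p = 1.97e-06 and 5.37e-05). Of 6 other desmosome, hemidesmosome and gap junction genes tested, 3 rose and 0 fell by edgeR, with a median of 1.35 and again with 0 lower at an unadjusted p under 0.05 or by DESeq2. They were *Cdsn*, corneodesmosin, *Panx1*, a large-pore channel related in structure to connexins, and *Col17a1*, a hemidesmosomal collagen with a mean of 0.22 CPM in the controls and 1.47 CPM after cisplatin.

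Of 10 tested transcription factor genes known to act on epithelial junction genes, 3 rose and 2 fell, with a median of 0.43. *Grhl1* and *Grhl2*, Grainyhead-like activators of epithelial junction genes, rose from 2.12 ± 0.93 to 7.88 ± 0.63 CPM and from 13.71 ± 1.51 to 37.28 ± 13.4 CPM (log2 fold changes 1.90 and 1.44, edgeR adjusted p = 0.00166 and 0.00143). *Snai3*, a Snail-family repressor, rose from 0.62 ± 0.19 to 13.03 ± 2.17 CPM (log2 fold change 4.37, edgeR adjusted p = 6.82e-06), whereas *Snai1* was not called (log2 fold change 1.07, edgeR adjusted p = 0.109). *Ovol1*, a transcription factor of epithelial cells, fell (log2 fold change -1.02, edgeR adjusted p = 0.00478).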

How the data were processed

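Total RNA of mouse kidneys was sequenced as poly(A) libraries, 1 per mouse. Per the methods the authors used HISAT2 for alignment to GRCm38, and the submitters' processing notes also name fastp. What they deposited are raw, unnormalized counts per gene; the counting tool, its strand setting and the annotation release are not given in the sources used here. The labels describe a kit that marks the second strand, whereas the methods name a GEXSCOPE kit. Of 53715 rows, 17835 held 10 values for 8 named libraries and were left out, with 2 unnamed columns of values used in no step, so the totals of 10953338 to 16701599 counts cover part of each library. Coordinates were those of the table, and 55 of the 60 junction genes had equal coordinates in GENCODE M21.

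Groups came from the labels. Counts were filtered by expression, TMM-normalized and tested with edgeR 4.0.16 in R 4.3.3 (quasi-likelihood, Benjamini-Hochberg adjustment over all tested genes), control against cisplatin, with 4 libraries in each. The threshold was an adjusted p under 0.05 and a log2 fold change of 1 or more in size, as in the study. Where a group had only a few counts, the ratio of summed normalized counts is given with an exact 95% interval for counting error. Set ratios used a pseudocount of 0.1 CPM. In simulated counts for 8934 genes, edgeR recovered 88.1% of 193 genes changed by a log2 fold change of 2 and called 13 unchanged genes. The simulation held no library sets and far fewer changed genes than were called here, so these rates do not describe these libraries. Replicates differed by more than sampling noise, with a chi-square per gene of at least 15.33 for any pair. DESeq2 1.42.0, other scalings and filters, and fits without single libraries were run as alternatives.

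Values per library are given for the 3 called genes of each family and direction with the largest change if their mean reached 1 CPM, and for segment genes whose mean reached 5 CPM. *Cldn6* and *Gjb5* are given the same way and were added after their values were seen, and the remaining tested genes are named with a mean or a fold change, except for a few genes that are not reported here. Named genes of the other lists were the 3 called per direction with the largest change. The genes and lists were chosen with earlier results of these data known. Promoters were those of RefSeq.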

Additional observations from a re-analysis of the deposited data

Results flagged for a closer look

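In 5 of 72 groups of 4 libraries, 1 library stood apart from the other 3 by Dixon's criterion, where chance gives about 3.6. *Cdh1* was at 380.9 CPM in control 3, against 322.7 to 326.4 CPM in the other controls. *Ctnnb1* was at 714.1 CPM in control 5, against 549.9 to 571.0 CPM. *Marveld2* was at 36.64 CPM in control 5, against 26.65 to 27.12 CPM, and *Jam3* at 25.63 CPM, against 17.44 to 17.87 CPM. *Gjb5* was at 0.1517 CPM in control 3, from 2 counts, with no counts in the other controls. For 3 of these genes the library was control 5, which the second principal component also set apart.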

How the results depend on the processing

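The count of 21 called junction genes, 13 higher and 8 lower, was recomputed under 20 alternatives, 3 of them (library set as a covariate, the first library set alone, and no cisplatin 1 and 3) chosen after seeing the data. Scaling by total library size gave 21 higher and 4 lower, and over all genes 3174 higher and 803 lower against 1754 and 1434. A minimum of 10 counts in every library left 4 lower, since fewer genes were tested, and over all genes 1101 higher and 1064 lower. Without the fold threshold 20 were higher and 8 lower, and over all genes 2416 higher and 2069 lower. Testing for changes beyond 1 on the log2 scale left 12, with 7 higher and 5 lower, and over all genes 885 and 803. The first library set alone gave 13 higher and 5 lower, and over all genes 1623 higher and 1501 lower. Leaving out 1 library at a time gave between 19 and 22. Over all genes these fits gave 1559 to 1848 higher and 1351 to 1533 lower. No called gene changed direction in any of these settings, which draw on the same libraries as the calls. Among genes not called, *Cdh2*, *Cdh5*, *Cdh11*, *Cldn34c1*, *Ctnna1*, *Ctnnb1* and *Ctnnd1* did. The 10 called genes that lost their call in some setting included *Cdh16*, *Cdh3*, *Cdh6*, *Ctnnbip1*, *Cldn5*, *Pkp4*, *Dsp*, *F11r* and *Jam3*.

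Controls and cisplatin libraries share only the numbers 1 and 3, from different mice. A replicate block on these numbers gave 20 genes, 15 higher and 5 lower, and over all genes 1710 higher and 1404 lower. The deviations of same-numbered libraries correlated at 0.249 and 0.279 and those of different-numbered libraries at 0.148 to 0.355 in the first library set and at 0.386 and 0.508 in the second, so the numbers were not taken as pairs.

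Depth limits the low genes: *Cldn23*, *Ctnna2*, *Gjb5* and *Gjb6* had at most 7 counts in every library of the lower group, and the fitted size of their changes is less certain than their direction.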
